A study of Homo sapiens with 25 samples.

Results

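The bottom step of the dye range is the comparison of midlow dye with low dye cells, 4 libraries against 4, out of 25 in the series. The 8 libraries were chosen by their group label alone, and midlow and low dye libraries with the same biological replicate number formed 4 pairs. All came from hiF-T cells, a fibroblast-like human line made from BJ skin fibroblasts that carries an added copy of telomerase (hTERT). Every library was of genotype WT with no treatment. Poly(A) RNA was sequenced after cells were sorted by how much dye they had accumulated, into low, midlow, midhigh and high gates, and ungated cells were taken alongside. The series design speaks of a sort by proliferation status. The labels name neither the dye nor the gate limits, give no time in culture, and leave unsaid whether slowly dividing cells hold more dye or less. All libraries are of 1 cell line, and a bulk library cannot tell fewer cells that express a gene from less RNA per cell.

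As background, the decision to divide again passes through the p53 and retinoblastoma pathways. p53 raises CDKN1A, whose protein p21 blocks cyclin-dependent kinases. Blocked kinases leave the retinoblastoma family bound to E2F factors at the promoters of DNA replication genes, and the related DREAM complex bound at CHR elements in promoters of mitotic genes. Arrested fibroblasts in culture commonly make more matrix and more secreted proteins, among them insulin-like growth factor binding proteins (IGFBPs).

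The question of the comparison was which genes already change between the lowest gates. Of 14592 genes tested, 1 was called at an adjusted p under 0.05, which is 0.00685% (edgeR quasi-likelihood test with the replicate number as a block, all 20 sort libraries in 1 fit, Benjamini-Hochberg adjustment). This gene was IGFBP5, which rose from low to midlow dye cells. No gene was called lower. In the same fit the middle step, midhigh against midlow dye, called 1574 genes (10.8%), 805 higher (5.52%) and 769 lower (5.27%). The top step, high against midhigh dye, called 2 (0.0137%), GPNMB and VWCE, both higher. At an unadjusted p under 0.05 the bottom step held 1159 genes (7.94%), of which 761 were higher (5.22%) and 398 lower (2.73%).

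The promoters of 5 genes described below are shown first, as the 200 bases before the RefSeq start (GRCh38.p14), written 5′ to 3′ on the gene's strand. IGFBP5 is the called gene, and its capitals mark TATTTAA, an AT-rich stretch where a TATA box commonly lies. CDT1 and E2F1 stand for the DNA replication genes, and their capitals mark E2F motifs. CDK1 and TOP2A are mitotic genes with positive fold changes, picked after their values were seen, and their capitals mark the CHR letters. CDT1, E2F1, CDK1 and TOP2A all missed the adjusted threshold.

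IGFBP5, chr2:216695550-216695749, minus strand: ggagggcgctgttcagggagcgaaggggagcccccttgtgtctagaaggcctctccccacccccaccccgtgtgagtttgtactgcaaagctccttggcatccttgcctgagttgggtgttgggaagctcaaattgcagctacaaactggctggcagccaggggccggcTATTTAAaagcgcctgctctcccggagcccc
CDT1, chr16:88803589-88803788, plus strand: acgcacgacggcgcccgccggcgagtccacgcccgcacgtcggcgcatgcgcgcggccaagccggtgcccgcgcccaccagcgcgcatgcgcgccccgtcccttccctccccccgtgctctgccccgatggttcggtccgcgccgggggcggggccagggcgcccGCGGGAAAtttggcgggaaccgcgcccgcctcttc
E2F1, chr20:33686386-33686585, minus strand: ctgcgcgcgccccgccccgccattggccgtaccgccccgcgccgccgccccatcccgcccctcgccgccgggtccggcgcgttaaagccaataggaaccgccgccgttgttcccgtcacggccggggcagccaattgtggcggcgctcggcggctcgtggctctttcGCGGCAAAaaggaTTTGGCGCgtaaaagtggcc
CDK1, chr10:60778131-60778330, plus strand: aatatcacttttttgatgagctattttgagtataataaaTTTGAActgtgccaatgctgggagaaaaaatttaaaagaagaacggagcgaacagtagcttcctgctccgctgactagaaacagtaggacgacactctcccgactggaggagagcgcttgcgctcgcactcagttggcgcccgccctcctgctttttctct
TOP2A, chr17:40417897-40418096, minus strand: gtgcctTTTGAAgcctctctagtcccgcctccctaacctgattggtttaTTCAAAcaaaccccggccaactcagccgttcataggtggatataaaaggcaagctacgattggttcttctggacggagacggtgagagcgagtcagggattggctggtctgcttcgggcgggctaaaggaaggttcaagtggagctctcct

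The IGFBP5 stretch lies 31 to 25 bases before the start and was searched on the gene's strand only, after the sequence had been read. Of 35116 RefSeq promoters, 2.26% hold these letters in the 250 bases before the start, and of 10555 promoters of tested genes 1.17%. E2F motifs were searched as TTTGGCGC, TTTCCCGC, TTTCGCGC and TTTGCCGC on both strands, and CHR as TTTGAA on both strands. An E2F motif was found in 37.2% of 43 DNA replication promoters, in 4.26% of 47 G2 and mitosis promoters, in 4.44% of the promoters of tested genes and in 2.79% of all promoters. The CHR letters were found in 48.9% of the G2 and mitosis promoters, in 2.33% of the DNA replication promoters, in 8.76% of the promoters of tested genes and in 13.3% of all promoters. The marked CHR letters lie 161 to 156 bases before the start in CDK1, and 194 to 189 and 151 to 146 bases before it in TOP2A. In the G2 and mitosis list such letters ranged from 17 to 12 bases before the start (CKAP2L) to 247 to 242 (SPC25). For the genes shown and the lists, 1 RefSeq start per gene was used. A match to such letters is a description and not a measured binding site, and whether DREAM binds the marked letters was not tested.

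Gene counts came to between 15015039 and 20030093 per library among the 8, and a gene listed at 0 may reach 3 counts for counting error only, which is 0.150 to 0.200 CPM before TMM scaling. CPM are counts per 1000000 gene counts, and the levels below use TMM-scaled library sizes. Reads assigned to no gene took 6.07% to 7.28% in low dye and 5.36% to 6.32% in midlow dye libraries and were lower in midlow dye in 4 of 4 pairs. The part of this difference in the results was not tested. The mitochondrial share overlapped, at 2.19% to 2.97% and 2.42% to 2.87%. The 15 fibroblast markers summed to 18410 to 20268 CPM in low dye and 20678 to 22298 CPM in midlow dye libraries. THY1, a surface marker of many fibroblasts, was under 1 CPM in all 8, whereas collagens, FN1 and VIM were abundant. The 8 immune markers summed to under 1 CPM in every library. Epithelial markers (chiefly KRT18 and KRT8) summed to 130.7 to 312.0 CPM in low dye and 147.8 to 295.4 CPM in midlow dye, endothelial markers to 66.0 to 98.5 and 81.9 to 101.8 CPM, melanocyte markers to 1.78 to 2.82 and 1.72 to 4.51 CPM, muscle markers to 8.78 to 9.83 and 7.64 to 10.3 CPM, and neuronal markers (chiefly UCHL1 and NEFM) to 589 to 932 and 677 to 1027 CPM.

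IGFBP5 (ENSG00000115461, chr2:216672105-216695525, GRCh38, protein coding) encodes a secreted protein that binds insulin-like growth factors and also matrix. IGFBP5 stood at 14.04, 4.43, 13.3 and 3.25 CPM in low dye replicates 1 to 4 and at 24.1, 16.5, 33.0 and 11.9 CPM in midlow dye replicates 1 to 4. Midlow dye was higher in 4 of 4 pairs. The groups overlapped all the same, because low dye replicates 1 and 3 lay above midlow dye replicate 4. The log2 fold change was 1.33 ± 0.19 (SE), or 2.52-fold with a 95% interval of 1.92 to 3.31, at an adjusted p of 0.00777.

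From midlow to midhigh dye IGFBP5 rose again, by 1.37 on the log2 scale (adjusted p = 0.000148), to 65.2, 48.8, 73.7 and 29.6 CPM in replicates 1 to 4. From midhigh to high dye its change was -0.14 (adjusted p = 0.842). The bottom step did not differ from the middle step beyond the error, with a difference of -0.04 and an unadjusted p of 0.906. Both steps use the midlow libraries, so their values are not independent. In ungated cells IGFBP5 lay at 36.6, 42.2, 70.1 and 19.0 CPM.

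The call for IGFBP5 needed the replicate block. Without the block the log2 fold change was 1.29 and the adjusted p was 1. It also missed the threshold without replicate 2 (adjusted p = 0.104), without replicate 4 (0.199), without midlow dye replicate 1 (0.0647) and without low dye replicate 4 (0.0520). The log2 fold change ranged from 1.12 to 1.66 over all 22 alternatives, always higher in midlow dye.

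**Figure D1:**
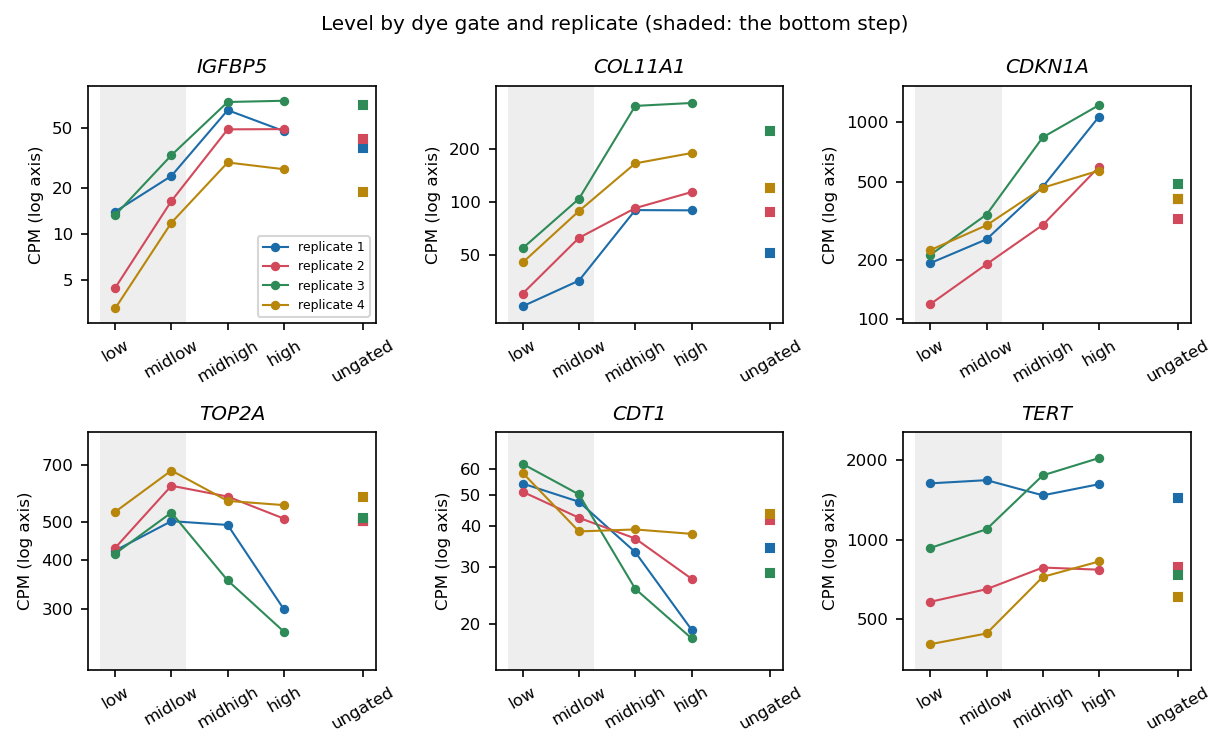
Level of 6 genes by dye gate, in CPM on a log axis, with 1 line for each biological replicate across the low, midlow, midhigh and high gates and squares for the ungated library of that replicate; shading marks the bottom step. IGFBP5 climbs from 3.25 to 14.04 CPM in low dye to 11.9 to 33.0 CPM in midlow dye, CDT1 is lower in midlow dye in every replicate, and TOP2A is higher there than in low dye in every replicate.

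The other IGFBPs lay on the same side with smaller differences. 5 of the 6 listed IGFBPs were measured, and all 5 were above 0, against 51.5% of all genes tested. IGFBP4, which restrains insulin-like growth factor signalling, stood at 364, 513, 564 and 620 CPM in low dye and 415, 570, 669 and 704 CPM in midlow dye replicates 1 to 4. It was higher in 4 of 4 pairs, with a log2 fold change of 0.19 ± 0.08 (unadjusted p = 0.0218, adjusted p = 0.542). IGFBP7 gave 0.16 ± 0.07 (adjusted p = 0.542) and IGFBP3 0.16 ± 0.15 (adjusted p = 0.817), each higher in 4 of 4 pairs, and IGFBP6 gave 0.16 ± 0.10, higher in 3. Per kilobase of exon, mean IGFBP5 was the scarcest of these in low dye cells, at 1.36 CPM per kb against 234 for IGFBP4 and 185 for IGFBP7.

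A further 7 genes had an adjusted p under 0.1 and are named here after their values were seen. They are COL11A1, TRNP1, TMEM132B, SSC5D, PGPEP1, EREG and CCNG2, and each was higher in midlow dye in 4 of 4 pairs. COL11A1, a fibrillar collagen chain, stood at 25.4, 30.01, 54.5 and 45.1 CPM in low dye and 35.6, 62.4, 104 and 88.8 CPM in midlow dye replicates 1 to 4. The groups overlapped, since low dye replicates 3 and 4 exceeded midlow dye replicate 1. Its log2 fold change was 0.88 ± 0.16 (adjusted p = 0.0627).

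EREG encodes epiregulin, a ligand of the epidermal growth factor receptor. It was at 91.2, 57.9, 50.6 and 39.5 CPM in low dye and 98.8, 79.8, 66.9 and 57.1 CPM in midlow dye, which gave 0.37 ± 0.07 (adjusted p = 0.0839). CCNG2 encodes cyclin G2, an atypical cyclin known for high levels in cells that leave the cycle. It stood at 17.6, 11.1, 12.2 and 12.9 CPM in low dye and at 19.8, 18.1, 18.4 and 19.1 CPM in midlow dye, so the groups did not overlap (0.50 ± 0.10, adjusted p = 0.0839). All midlow dye libraries lay above all low dye libraries for 1.05% of the genes tested and below them for 1.37%.

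TRNP1, a nuclear protein studied in cell proliferation, went from 7.23 to 10.4 CPM in low dye to 10.9 to 15.8 CPM in midlow dye without overlap (0.54 ± 0.09, adjusted p = 0.0627). SSC5D, a secreted scavenger receptor protein, went from 14.4 to 21.5 CPM to 21.6 to 32.2 CPM, also without overlap (0.49 ± 0.09, adjusted p = 0.0839). TMEM132B, a membrane protein, was low in all 8 libraries, at 0.491 to 4.76 CPM and 2.87 to 10.4 CPM (1.31 ± 0.24, adjusted p = 0.0772). PGPEP1, a peptidase, gave 0.61 ± 0.12 (adjusted p = 0.0839), and its gene (chr19:18340587-18369950) is followed on the chromosome by GDF15 (chr19:18374731-18389176), described with the p53 targets.

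**Figure D2:**
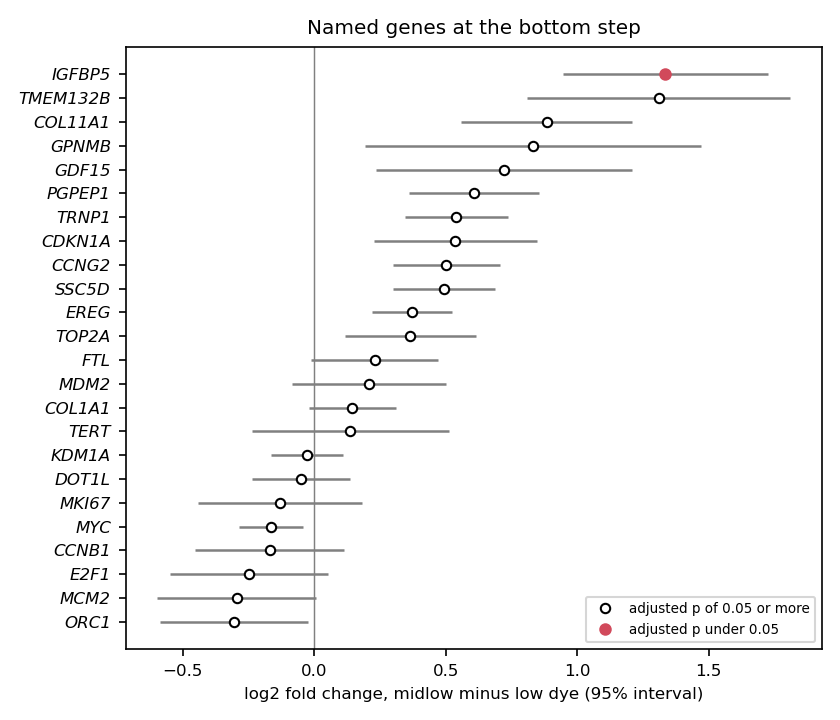
Log2 fold change of midlow minus low dye with its 95% interval for 24 genes, made up of IGFBP5, the 7 with an adjusted p under 0.1 and 16 set by name whatever their values. The filled point, IGFBP5 at 1.33, is the single gene past the adjusted threshold, and intervals that cross 0 belong to genes such as TERT, MKI67 and KDM1A.

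The number of calls depended strongly on which libraries set the spread. When the 8 compared libraries were fitted alone with the replicate block, 597 of 13621 genes were called (4.38%), 424 higher (3.11%) and 173 lower (1.27%). The log2 fold changes were close in both fits (IGFBP5 1.35 and 1.33, COL11A1 0.89 and 0.88), and their errors were not. The median SE was 0.0691 in the 8-library fit and 0.0978 in the 20-library fit, and the common dispersion was 0.00190 and 0.00599. Single genes differed in this, with SEs of 0.0723 and 0.234 for GDF15 and 0.101 and 0.160 for TP53INP1. The 20-library spread also holds how replicates differ in the upper gates. Mean log2 CPM of the DNA replication genes was 5.89, 5.85, 6.04 and 6.02 in low dye replicates 1 to 4. In high dye it was 4.76, 5.38, 4.59 and 5.53. The part of this in the number of calls was not tested. The 8-library fit has 3 residual degrees of freedom per gene against 12, and its spread estimates lean on a prior of 30.1 degrees of freedom shared between genes, against 8.99. Left without 1 pair at a time, it called 263 (without replicate 3) to 842 (without replicate 1) genes. The counts of list members below name the fit they come from, and a gene called only in the 8-library fit is not described as changed.

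The p53 targets lay mostly above 0. Of 34 measured members (of 37 listed), 29 had a log2 fold change above 0 and 5 below, with a median of 0.22, against 0.005 over all genes tested. Members with an unadjusted p under 0.05 numbered 12 higher and 0 lower, where the background shares were 5.22% and 2.73%. Being higher in 4 of 4 pairs held for 21 members, against 12.9% of all genes. None passed the adjusted threshold in the 20-library fit, and 16 were called higher and 0 lower in the 8-library fit, against 3.11% and 1.27% of all genes. The median kept its sign in all 4 pairs, at 0.10, 0.27, 0.24 and 0.20 in replicates 1 to 4.

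CDKN1A, which encodes the kinase inhibitor p21, was at 193, 119, 212 and 225 CPM in low dye and 255, 190, 341 and 300 CPM in midlow dye replicates 1 to 4. It was higher in 4 of 4 pairs, though midlow dye replicate 2 lay below 3 of the low dye libraries. Its log2 fold change was 0.54 ± 0.15 (unadjusted p = 0.00164, adjusted p = 0.375, and 7.18e-10 in the 8-library fit). The next step added 0.88 (adjusted p = 0.00187), with no difference between the steps past the threshold (-0.35, unadjusted p = 0.192).

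Among the arrest and death genes of the list, TP53INP1, a stress-induced regulator of autophagy and cell death, stood at 9.03, 5.45, 7.94 and 7.23 CPM and at 12.7, 9.70, 14.9 and 10.5 CPM, without overlap (0.69 ± 0.16, adjusted p = 0.249). FAS, a death receptor, gave 0.39 ± 0.13 (adjusted p = 0.442), and BTG2, an antiproliferative gene, 0.57 ± 0.31 at levels of only 1.22 to 3.35 CPM. ZMAT3, an RNA-binding p53 target, stood at 69.5, 52.9, 74.4 and 74.2 CPM in low dye and 79.8, 72.4, 97.9 and 108 CPM in midlow dye (0.41 ± 0.11, adjusted p = 0.357).

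SPATA18, which acts in mitochondrial quality control, had the widest difference of the list. It stood at 4.76, 2.95, 1.79 and 3.74 CPM in low dye and at 7.97, 6.37, 6.22 and 6.41 CPM in midlow dye, without overlap (1.02 ± 0.26, adjusted p = 0.275). GDF15, a secreted stress signal, stood at 24.1, 14.6, 27.4 and 30.1 CPM and at 42.0, 22.1, 57.6 and 42.3 CPM (0.72 ± 0.23, adjusted p = 0.418). TRIM22, an antiviral ubiquitin ligase listed under feedback, gave 0.61 ± 0.16 (adjusted p = 0.302). MDM2, the ubiquitin ligase that degrades p53, was at 0.21 ± 0.14 (adjusted p = 0.734), with an interval from -0.09 to 0.50.

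Of the 8 cyclin-dependent kinase inhibitors, 6 were above 0 and 2 below, and CDKN1A and CDKN2D had an unadjusted p under 0.05. In the 20-library fit 0 were called. In the 8-library fit 2 were called higher and 1 lower, against 3.11% and 1.27% of all genes. CDKN2D, an inhibitor that blocks CDK4 and CDK6, stood at 14.2, 8.46, 11.5 and 13.8 CPM in low dye and 17.0, 14.8, 14.3 and 17.7 CPM in midlow dye, without overlap by a narrow margin (0.42 ± 0.13, adjusted p = 0.402). CDKN3, a phosphatase that acts on CDK2, gave -0.24 ± 0.15 and CDKN1C, another inhibitor, -0.25 ± 0.15, both lower in 4 of 4 pairs.

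The DNA replication genes lay below 0 as a rule. All 51 listed genes were measured, 48 with a log2 fold change below 0 and 3 above. The median was -0.16, and the pair medians were -0.07, -0.07, -0.29 and -0.14 in replicates 1 to 4. An unadjusted p under 0.05 was reached by 6 lower and 0 higher members, against 2.73% and 5.22% of all genes. Being lower in 4 of 4 pairs held for 28 of the 51, against 10.1% of all genes. All midlow libraries lay below all low libraries for 9, against 1.37% of all genes. In the 20-library fit 0 were called, and in the 8-library fit 19 were called lower, against 1.27% of all genes. Without low dye replicate 3 alone, its midlow partner kept, the median was -0.02, with 32 members below 0 and 19 above. With the whole pair left out of the 8-library fit, the median was -0.105, 40 of 51 members were below 0 and 9 were called lower.

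Origin licensing and firing genes, which load and start the replicative helicase, had a median of -0.20 over 18 members. CDT1, a loader of the MCM helicase, stood at 54.2, 51.1, 62.3 and 58.5 CPM in low dye and 47.7, 42.5, 50.2 and 38.6 CPM in midlow dye replicates 1 to 4. All midlow dye values were below all low dye values (-0.33 ± 0.15, adjusted p = 0.596). MCM5, a helicase subunit, stood at 189, 176, 192 and 183 CPM and at 166, 153, 144 and 136 CPM, again without overlap (-0.31 ± 0.15, adjusted p = 0.606).

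MCM2 gave -0.30 ± 0.15 (adjusted p = 0.635) and MCM4 -0.24 ± 0.12 (adjusted p = 0.636), both without overlap between the groups. ORC1, part of the origin recognition complex, gave -0.30 ± 0.14 (adjusted p = 0.595). Replication fork genes had a median of -0.15, with all 20 members below 0. TIPIN, of the fork protection complex, had the smallest p of the list. It stood at 29.03, 33.4, 32.4 and 33.4 CPM in low dye and 25.01, 25.4, 25.8 and 27.1 CPM in midlow dye without overlap (-0.31 ± 0.09, unadjusted p = 0.00241, adjusted p = 0.394).

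POLE, the catalytic subunit of DNA polymerase epsilon, gave -0.24 ± 0.10 (adjusted p = 0.570). The 6 nucleotide supply genes had the smallest median of the roles, -0.09, and TYMS, thymidylate synthase, was at -0.01 ± 0.13. Of the E2F family, E2F1 stood at 58.8, 52.2, 69.8 and 63.9 CPM and at 53.8, 45.9, 53.5 and 52.8 CPM (-0.25 ± 0.14, adjusted p = 0.690), lower in 4 of 4 pairs. E2F2 gave -0.51 ± 0.22 at 5.34 to 13.1 CPM (adjusted p = 0.575).

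The G2 and mitosis genes showed no common direction. Of 56 measured members, 25 were above 0 and 31 below, with a median of -0.04. The median turned positive, at 0.10, without low dye replicate 3. The only members with an unadjusted p under 0.05 were CDK1, UBE2C and TOP2A, all 3 with positive fold changes, a number close to the 5.22% of all genes higher at that threshold. They were singled out after their values were seen. In the 8-library fit these 3 were called higher, against 3.11% of all genes. It called 8 others lower, against 1.27% of all genes, among them KIF20A, FOXM1 and CCNB1. Left without replicate 1, 2, 3 or 4 in turn, this fit called 11, 7, 2 and 4 members lower. Over all genes tested it then called 282, 135, 60 and 84 lower.

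TOP2A, the topoisomerase that untangles chromosomes before mitosis, stood at 422, 429, 415 and 530 CPM in low dye and 502, 618, 528 and 676 CPM in midlow dye replicates 1 to 4. It was higher in 4 of 4 pairs, and low dye replicate 4 lay above the midlow dye values of replicates 1 and 3 (0.37 ± 0.12, unadjusted p = 0.00624, adjusted p = 0.437). CDK1, the kinase that drives entry into mitosis, stood at 101, 84.9, 83.0 and 114 CPM and at 117, 128, 107 and 149 CPM (0.39 ± 0.12, adjusted p = 0.418). UBE2C, the ubiquitin carrier of the anaphase-promoting complex, stood at 56.2, 48.9, 51.1 and 59.5 CPM and at 62.9, 73.4, 68.6 and 73.9 CPM, without overlap (0.37 ± 0.11, adjusted p = 0.394).

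At the middle step the same genes gave -0.23 for TOP2A, -0.29 for CDK1 and -0.19 for UBE2C. The bottom step minus the middle step was 0.60 for TOP2A (unadjusted p = 0.00842), 0.67 for CDK1 (0.00474) and 0.56 for UBE2C (0.00672), each with an adjusted p of 0.858. By contrast MKI67, a proliferation marker, stood at 621, 620, 689 and 776 CPM and at 609, 552, 598 and 717 CPM (-0.13 ± 0.15, adjusted p = 0.865). CCNB1, the mitotic cyclin partner of CDK1, was at -0.17 ± 0.14 (adjusted p = 0.775), and KIF20A, a kinesin of cell division, at -0.28 ± 0.16 (adjusted p = 0.689). These 3 were lower in 4 of 4 pairs.

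**Figure D3:**
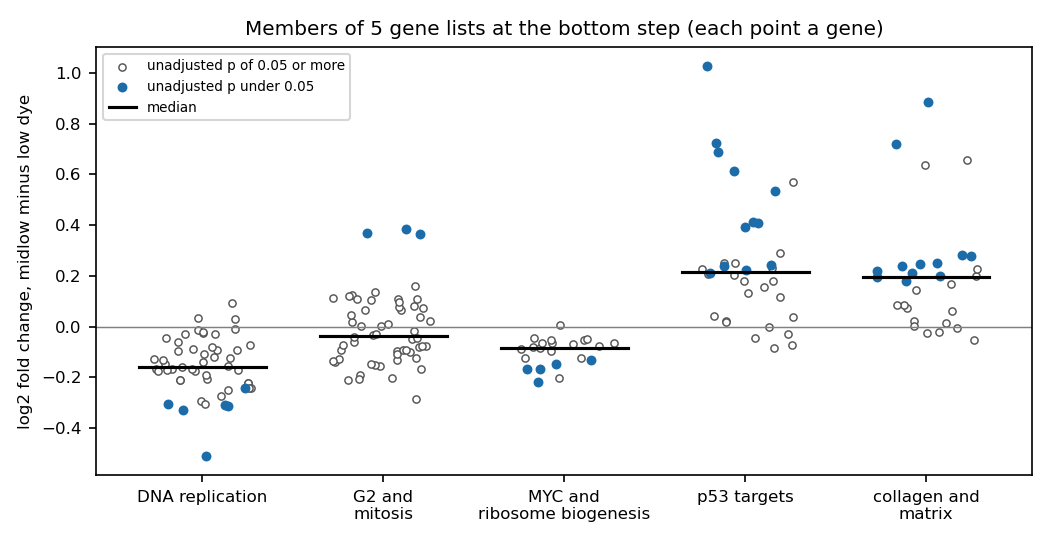
Each point is a measured member of 1 of 5 gene lists, placed by its log2 fold change of midlow minus low dye; filled points have an unadjusted p under 0.05 and bars are medians. DNA replication lies below 0 (median -0.16), p53 targets and collagen and matrix lie above (0.22 and 0.20), and the G2 and mitosis list straddles 0 with TOP2A, CDK1 and UBE2C as its 3 filled points.

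Collagen and matrix genes also lay mostly above 0. Of 29 measured members (of 30), 25 were above 0 and 4 below, with a median of 0.20 and pair medians of 0.12, 0.17, 0.23 and 0.21. An unadjusted p under 0.05 was reached by 12 higher and 0 lower members, against 5.22% and 2.73% of all genes. Being higher in 4 of 4 pairs held for 20, against 12.9%. In the 20-library fit 0 were called, and in the 8-library fit 17 were called higher, against 3.11% of all genes. The summed fibroblast markers were higher in midlow dye as well. Of these, 6 are also on this list (COL1A1, COL1A2, COL3A1, FN1, DCN and LUM), and FN1 gave the largest share of the sum. The sum is therefore not separate from the list. Off the list, VIM ranged from 2340 to 2620 CPM in low dye and from 2300 to 2650 CPM in midlow dye. P4HB ranged from 618 to 686 and from 598 to 682 CPM, and FAP from 45 to 71.8 and from 51.1 to 74.5 CPM. The part of the fibroblast markers in the list's difference was not tested.

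All 6 fibrillar collagens were above 0. Type I collagen, the main fibre of skin, is made of the COL1A1 and COL1A2 chains. COL1A1 stood at 3216, 2728, 2168 and 2265 CPM in low dye and at 3596, 2778, 2631 and 2468 CPM in midlow dye (0.14 ± 0.08, adjusted p = 0.667). COL1A2 stood at 2682, 2338, 1623 and 1810 CPM and at 3152, 2759, 2177 and 2142 CPM (0.28 ± 0.09, adjusted p = 0.478). Both chains were higher in 4 of 4 pairs while the ranges overlapped.

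COL3A1, of the thin fibres that go with type I, stood at 14.4, 26.5, 10.4 and 22.1 CPM and at 16.2, 48.9, 18.4 and 42.0 CPM (0.72 ± 0.21, adjusted p = 0.394). COL5A2, a chain that sets fibre width, gave 0.20 ± 0.05 (unadjusted p = 0.000523, adjusted p = 0.267). Outside the collagens, SPARC, a collagen-binding glycoprotein, gave 0.24 ± 0.07 and THBS2, thrombospondin 2, gave 0.25 ± 0.07 (both adjusted p = 0.394). FN1, fibronectin, went from 10567 to 11590 CPM in low dye to 11681 to 13687 CPM in midlow dye without overlap (0.17 ± 0.09, adjusted p = 0.636). The 4 enzymes that hydroxylate or crosslink collagen were above 0 and higher in 4 of 4 pairs, PLOD2 by 0.18 ± 0.06 (adjusted p = 0.478).

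MYC and ribosome biogenesis genes, which build the nucleolus and its products, lay slightly below 0. Of 22 members 21 were below 0, with a median of -0.08, and 14 were lower in 4 of 4 pairs, against 10.1% of all genes. An unadjusted p under 0.05 was reached by 5 lower and 0 higher members, against 2.73% and 5.22% of all genes. The 8-library fit called 5 lower, against 1.27% of all genes, and the 20-library fit 0. Without replicate 1, 2, 3 or 4 in turn, the 8-library fit called 5, 4, 1 and 2 of them lower. Over all genes tested these fits called 282, 135, 60 and 84 lower. DKC1, the pseudouridine synthase of nucleoli and telomerase, stood at 150, 140, 170 and 149 CPM and at 126, 127, 138 and 132 CPM, without overlap (-0.22 ± 0.07, adjusted p = 0.414). MYC itself stood at 86.3, 79.4, 80.2 and 75.5 CPM and at 78.0, 68.2, 73.2 and 67.0 CPM (-0.17 ± 0.06, adjusted p = 0.488), lower in 4 of 4 pairs. The 34 cytosolic ribosomal protein genes, in contrast, had a median of 0.01, a range from -0.03 to 0.08 and 0 members with an unadjusted p under 0.05.

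Secreted and inflammatory factors had 20 of 27 measured members above 0 and a median of 0.16. IGFBP5 was the 1 call of the 20-library fit. In the 8-library fit 7 of 25 were called higher, against 3.11% of all genes. The median lay between 0.0657 and 0.0935 when 1 of these was left out: replicate 3, replicate 4, midlow dye replicate 2, midlow dye replicate 4 or low dye replicate 3. The 12 cytokines divided evenly, 6 above and 6 below 0. SPP1, osteopontin, stood at 42.2, 20.7, 42.8 and 26.2 CPM in low dye and at 68.4, 36.0, 69.5 and 39.0 CPM in midlow dye replicates 1 to 4 (0.69 ± 0.20, adjusted p = 0.394), higher in 4 of 4 pairs.

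Among contractile genes 13 of 18 were above 0, against 51.5% of all genes, and 4 were higher at an unadjusted p under 0.05, against 5.22%. The 20-library fit called 0 and the 8-library fit 4 higher, against 3.11% of all genes in the latter. ACTA2, smooth muscle actin, stood at 5.58, 5.96, 45.1 and 37.7 CPM and at 7.76, 7.74, 52.3 and 50.1 CPM, a step far smaller than the gap between replicates 1 and 2 and replicates 3 and 4 (0.34 ± 0.13, adjusted p = 0.509). Lysosomal genes had 24 of 31 members above 0 and a median of 0.08, with 0 called in the 20-library fit. In the 8-library fit 3 of them were called higher, against 3.11% of all genes. GPNMB, a lysosomal membrane glycoprotein, stood at only 2.32, 1.22, 1.601 and 1.35 CPM in low dye and 3.11, 2.60, 3.28 and 2.44 CPM in midlow dye, without overlap (0.83 ± 0.31, adjusted p = 0.509). Its later steps were 1.61 (adjusted p = 0.000978) and 1.57 (adjusted p = 0.000771).

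NRF2 and iron genes had 17 of 19 members above 0, a median of 0.08 and 0 members with an unadjusted p under 0.05. The 8-library fit called 1 of them higher, against 3.11% of all genes. FTL, the ferritin light chain, gave 0.23 ± 0.12 (adjusted p = 0.636). Nuclear oxidative phosphorylation genes (median 0.04), mitochondrially encoded genes (0.01), glycolysis and hypoxia genes (-0.01), cholesterol synthesis (0.04) and replication-dependent histones (0.03, with 13 of 27 measured) lay near the median of all genes. The last are made without poly(A) tails, so poly(A) selection captures them poorly. The mitochondrially encoded pairs disagreed, with medians of -0.31, 0.28, -0.11 and 0.14 in replicates 1 to 4. Of these lists the 8-library fit called higher 1 of 21 cholesterol synthesis genes, 2 of 21 glycolysis and hypoxia genes and 1 of 13 mitochondrially encoded genes. The share of all genes was 3.11%. The cholesterol synthesis gene was HMGCS1 (0.33 ± 0.07, adjusted p = 0.00211 in that fit).

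Factors tied to reprogramming and chromatin showed 12 of 15 measured members below 0, with a median of -0.05. The 20-library fit called 0 of them. The 8-library fit called TERT higher and MYC and DNMT1 lower, against 3.11% and 1.27% of all genes. KDM1A, which encodes the histone demethylase LSD1, stood at 177, 181, 168 and 167 CPM and at 178, 193, 153 and 158 CPM (-0.03 ± 0.07, adjusted p = 0.941). DOT1L, the methyltransferase of histone H3 lysine 79, gave -0.05 ± 0.09 (adjusted p = 0.914). The intervals ran from -0.17 to 0.11 for KDM1A and from -0.24 to 0.13 for DOT1L. TERT, of which the line carries an added copy, stood at 1634, 580, 929 and 401 CPM in low dye and at 1681, 648, 1094 and 440 CPM in midlow dye. The replicates thus differed by far more than the gates (0.14 ± 0.18, adjusted p = 0.883, and 0.0306 in the 8-library fit). The counts do not separate the added copy from the cell's own gene.

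**Figure D4:**
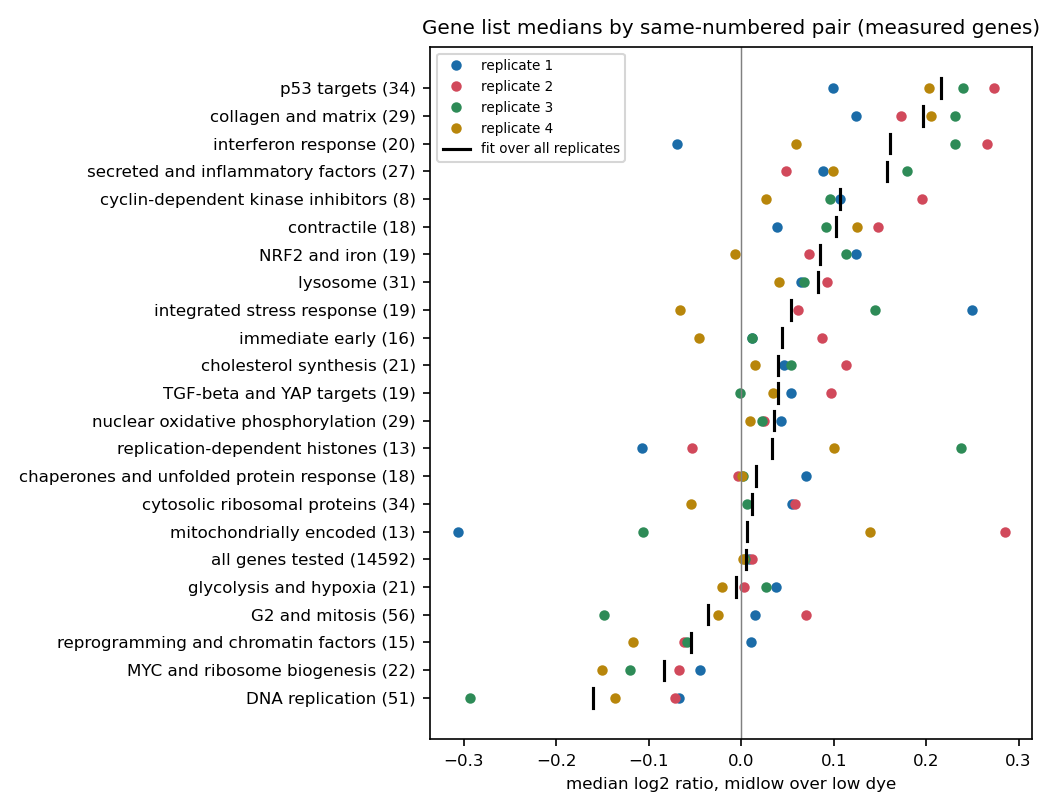
Median log2 ratio of midlow over low dye for each gene list, with 1 point for each same-numbered pair and a bar for the fit over all replicates; the number of measured genes stands in brackets. The p53 targets and the collagen and matrix list have all 4 points above 0, DNA replication and the MYC and ribosome biogenesis list have all 4 below, and replicate 3 is the lowest point of DNA replication at -0.29.

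Set against the other steps, the bottom step was narrower than the middle step. The interquartile range of log2 fold changes over all genes was 0.167 at the bottom, 0.270 at the middle and 0.167 at the top, with median SEs of 0.0978, 0.0979 and 0.0977. The DNA replication median was -0.16, -0.53 and -0.21 at the 3 steps, and 41 of its 51 members were called lower at the middle step. The p53 target medians were 0.22, 0.32 and 0.29, with 17 called higher and 1 lower at the middle step. The collagen and matrix medians were 0.20, 0.32 and 0.01, with 17 called higher at the middle step. The bottom and middle steps share the midlow libraries, so their values are set side by side only.

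**Figure D5:**
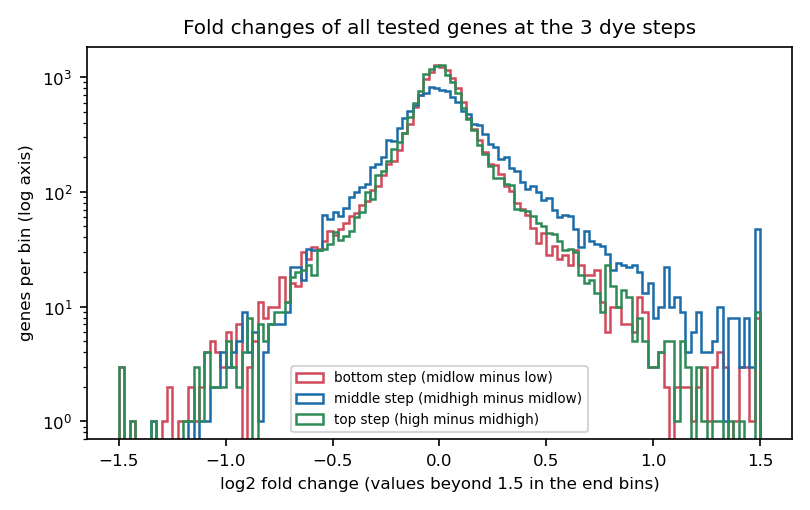
Number of genes (log axis) by log2 fold change for the bottom, middle and top steps over the 14592 tested genes, with values beyond 1.5 in the end bins. The middle step is broader, with an interquartile range of 0.270, than the bottom and top steps, each at 0.167.

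The direct test of the bottom minus the middle step called 0 genes in edgeR, DESeq2 and limma-voom, with 829 at an unadjusted p under 0.05 in edgeR (5.68%), 3.04% higher and 2.64% lower at the bottom step. Of the G2 and mitosis list 11 members, and of the DNA replication list 9, lay higher at the bottom than at the middle step at an unadjusted p under 0.05, against that 3.04% of all genes. The bottom minus the top step also called 0 genes in edgeR, with 671 at an unadjusted p under 0.05 (4.60%, of which 2.64% higher and 1.96% lower at the bottom step), and 1 each in DESeq2 and limma-voom. Bottom and top steps share no library, but both tests use the same spread estimate for each gene, so their p-values are not independent. At an unadjusted p under 0.05 they had 143 genes in common, 12.3% of the bottom and 12.1% of the top list, and 121 of these lay in the same direction. The share of all genes at that threshold was 7.94% at the bottom and 8.07% at the top step (4.52% higher and 3.56% lower).

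For 74.1% of the genes tested the 95% interval of the bottom step lay within 1.5-fold in either direction, and for 89.1% within 2-fold. For the other genes the interval reached beyond that size in at least 1 direction, IGFBP5 among them.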

How the data were processed

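Reads were aligned with STAR and counted per gene with HTSeq on hg38 (GRCh38), per the submitters' processing notes; versions, annotation release and strand setting are not given in the sources used here. The deposited values are raw counts per gene, not normalised by the authors. Of 58302 genes, 57532 had a symbol and 58039 were in GENCODE 29, which gave coordinates. The 5 drug libraries and a series-wide table were not used. Genes were filtered with filterByExpr (minimum count 10, total 15), scaled by TMM and tested with edgeR 4.0.16 (R 4.3.3) in 1 fit of group plus replicate number over 20 sort libraries, with calls where the Benjamini-Hochberg adjusted p was under 0.05. SEs are the log2 fold change over the square root of F. The scripts were tested on simulated counts. Same-numbered libraries pair: residuals of low and midlow dye correlated at 0.580 to 0.641 within numbers and -0.499 to 0.218 across. Over the sort set the 40 same-numbered pairs lay at 0.150 to 0.698 and the 120 others at -0.549 to 0.345, so these ranges overlapped. Residuals were centred within each group, which pushes the correlations across numbers down. The labels call them biological replicates without naming separate cultures, so p-values may not measure the spread between independent cultures. No 2 libraries of a group were copies (chi-square per degree of freedom at least 7.40). Replicates 3 and 4 were the most alike in both groups, at 7.40 in low dye and 9.09 in midlow dye. All other pairs of replicates lay at 17.3 to 30.8. Whether replicates 3 and 4 are less independent than the others was not tested. The named genes are called genes with at least 5 CPM and 1 direction in 4 pairs, 16 set genes and called list members. Others are said to be chosen after their values were seen, or are list members given as examples. The members, the 22 gene lists and 7 marker lists were chosen with earlier results of these data known, so they support nothing independently. H2AC18 and H3C2 matched no gene. Alternatives were no block, 8 or 16 libraries, DESeq2 1.42.0, limma-voom 3.58.1, RLE factors, other filters and left-out libraries.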

Additional observations from a re-analysis of the deposited data

Results flagged for a closer look

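In groups of 4 libraries, a library was singled out when its gap to the nearest other took a larger share of the group's range than Dixon's critical value. Chance does this in about 1 in 20 groups, and 7 of 108 groups tested met it. TOP2A reached 530.3 CPM in low dye replicate 4, above 415 to 429 CPM in the others. E2F1 was 45.87 CPM in midlow dye replicate 2, below 52.8 to 53.8 CPM. PGPEP1 was 6.959 CPM in low dye replicate 1, above 4.29 to 4.74 CPM. The mean log2 CPM of the glycolysis and hypoxia list was 6.716 in midlow dye replicate 4, that of cytosolic ribosomal proteins 8.779 in midlow dye replicate 1, and that of the interferon response 2.886 in midlow dye replicate 2, where the others lay between 1.92 and 1.98. Gene counts were 18914812 in low dye replicate 2.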

How the results depend on the processing

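The bottom step called 1 gene. Without the replicate block it called 0 (322 at an unadjusted p under 0.05), as did the middle and the top step, so the calls of all 3 steps rest on the pairing. It called 597 with the 8 compared libraries, 8 with the 16 gated libraries, 28 with DESeq2 and 177 with no filter on low counts, where the prior degrees of freedom were infinite, so that genes of like level shared 1 spread. Beyond the dispersions given for the 8-library fit, the cause was not tested. All 28 genes called by DESeq2 and all 8 of the 16-library fit were among the 597. Leaving out libraries gave 0 to 15 genes. The 0 came without replicate 2, replicate 4, midlow dye replicate 1 or low dye replicate 4. Without replicate 3 it gave 5, without midlow dye replicate 3 it gave 2, and without low dye replicate 1 it gave 7. The 15 came without ungated replicate 3, an alternative chosen after seeing the data, as were the fit without high dye replicate 3 (1 gene) and the 8-library fits without a pair (263 to 842). The middle step called 1574, with 274 to 2026 over left-out libraries (274 without replicate 1, 579 without midlow dye replicate 3). The top step called 2, with 6 for the 16 gated libraries, 19 for DESeq2, 5 for limma-voom, 251 with no filter and 0 to 38 over left-out libraries (38 without replicate 3, 23 without ungated replicate 3). The bottom minus middle step called 0, and 68 with no filter. The bottom minus top step called 0, with 1 for DESeq2, 1 for limma-voom, 59 with no filter and 0 to 2 over left-out libraries. The 8-library fit gives no value for the other steps. Over left-out libraries MKI67 ranged from -0.228 to 0.00908, KDM1A from -0.0708 to 0.0177 and DOT1L from -0.104 to 0.00770 on the log2 scale. KDM1A turned positive without replicate 3 (0.00718), midlow dye replicate 4 (0.0121) or low dye replicate 3 (0.0177), DOT1L without midlow dye replicate 4 (0.00770) and MKI67 without low dye replicate 3 (0.00908). Several other list medians moved by more than the standard deviation of their pair medians. Lysosome (0.0831) went to 0.0494 without replicate 2, 0.0553 without midlow dye replicate 2 and 0.0509 without low dye replicate 3. NRF2 and iron (0.0847) went to 0.156 without midlow dye replicate 1, and within that size to 0.0288 without low dye replicate 1. Reprogramming and chromatin (-0.0539) went to -0.116 without replicate 1 and 0.00697 without midlow dye replicate 4. Interferon response (0.161) went to 0.00186 without low dye replicate 3. Immediate early (0.0439) went to -0.0117 without replicate 2, and nuclear oxidative phosphorylation (0.0356) to 0.0101 without low dye replicate 3. The log2 medians ranged from 0.144 to 0.276 for p53 targets, 0.147 to 0.217 for collagen and matrix, -0.225 to -0.0223 for DNA replication and -0.114 to 0.0955 for G2 and mitosis.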

Other observations

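The rule for named genes was also applied to the 8-library fit, after its values had been seen, and 362 higher and 151 lower genes met it. Beside genes already described, the 12 with the largest fold change upward in that fit held SULF1, LRRC17, ANK2, KRT34 and NYNRIN. SULF1, which trims sulfates from heparan sulfate, stood at 1.75, 0.866, 18.3 and 10.1 CPM in low dye and 3.48, 2.65, 24.4 and 18.5 CPM in midlow dye replicates 1 to 4 (0.74 ± 0.12, adjusted p = 0.000150 in the 8-library fit). In the 20-library fit SULF1 had an adjusted p of 0.478. LRRC17, a secreted leucine-rich repeat protein, stood at 5.71, 7.34, 2.50 and 3.62 CPM and at 8.60, 12.9, 4.78 and 7.93 CPM (0.84 ± 0.12, adjusted p = 2.17e-05, against 0.596 with 20 libraries). ANK2, which encodes the adaptor ankyrin-B, gave 0.72 ± 0.13 and KRT34, a hair keratin, 0.87 ± 0.14, with 20-library adjusted p-values of 0.275 for both. NYNRIN gave 0.66 ± 0.12, with a 20-library adjusted p of 0.267.

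On the lower side the same rule named E2F2 and 11 others, of which OAS3 alone is on a list (interferon response). SLC7A2, a transporter of cationic amino acids, stood at 58.4, 56.2, 125 and 97.9 CPM in low dye and 45.2, 38.7, 87.6 and 79.1 CPM in midlow dye (-0.43 ± 0.05, adjusted p = 6.44e-07, against 0.478 with 20 libraries). ZNF367, a zinc finger gene, stood at 50.5, 38.3, 69.8 and 48.1 CPM and at 39.95, 30.4, 46.2 and 37.7 CPM (-0.41 ± 0.06, adjusted p = 1.86e-05, against 0.572). USP37, a deubiquitinase that acts on cyclin A, gave -0.37 ± 0.07 and TFAP4, a transcription factor known as a MYC target, -0.39 ± 0.09, with 20-library adjusted p-values of 0.302 and 0.394. GABPB1-AS1 gave -0.39 ± 0.08, but the library kit does not record the strand. Reads where it overlaps its antisense partner therefore cannot be told apart by strand.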
